A study of Homo sapiens with 12 samples.

Results

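The departure of the combination from additivity is the difference between what XL413 and OF1 did together and the sum of what each did alone, on the log2 scale. It was formed for each gene as the log2 level with both inhibitors, minus the level with XL413, minus the level with OF1, plus the level with DMSO. A value of 0 means that the fold changes of the single inhibitors multiplied, a positive value that the combination lay above that product, and a negative value that it lay below. All 12 of the 12 libraries entered the test, since the contrast needs every treatment, and it was made for 15353 genes with enough counts of 26475 entries. The cells were A375, a human melanoma line, cultured for 24 h with the vehicle DMSO, with 1 µM XL413, an inhibitor of the kinase CDC7, with 1 µM OF1, an inhibitor of the bromodomain proteins BRPF1, BRPF2 and BRPF3, or with 1 µM of each, in 3 libraries per treatment. All the libraries come from this 1 line without any genetic change named, and each inhibitor was used at a single dose and time.

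CDC7, with its activator DBF4, phosphorylates the MCM helicase and so lets licensed replication origins fire. The BRPF proteins are scaffolds that hold MYST acetyltransferases on histone H3, and BRPF2 is the product of BRD1. The integrated stress response is a separate pathway, in which stress-sensing kinases slow translation and the transcription factor ATF4 induces genes for amino acid synthesis, transport and tRNA charging. ATF4 and its partners of the C/EBP family bind composite elements in the promoters of such genes.

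The promoters of CHAC1 and ASNS are shown because both genes lay above the sum and had a window with the match described here. They are RefSeq windows on GRCh38.p14 from 250 bases before to 50 after an annotated start. A gene can have several windows, and the first that held a match was taken. They are printed 5′ to 3′ on the strand of the gene, with capitals on the match to TGATGNAA on either strand. The CHAC1 window is chr15:40953221-40953520 on the plus strand, and its match, TTGCATCA, lies on the opposite strand and begins 209 bases before the start. The ASNS window is chr7:97872359-97872658 on the minus strand, and its match, TGATGAAA, begins 68 bases before the start used. That start lies inside the gene as annotated, which spans 97851677 to 97928441.
CHAC1: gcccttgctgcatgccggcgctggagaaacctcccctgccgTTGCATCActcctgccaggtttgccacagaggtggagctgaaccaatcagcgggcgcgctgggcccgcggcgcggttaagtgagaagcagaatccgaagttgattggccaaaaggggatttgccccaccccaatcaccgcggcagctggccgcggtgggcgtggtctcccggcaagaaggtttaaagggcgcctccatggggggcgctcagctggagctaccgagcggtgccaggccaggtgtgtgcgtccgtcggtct
ASNS: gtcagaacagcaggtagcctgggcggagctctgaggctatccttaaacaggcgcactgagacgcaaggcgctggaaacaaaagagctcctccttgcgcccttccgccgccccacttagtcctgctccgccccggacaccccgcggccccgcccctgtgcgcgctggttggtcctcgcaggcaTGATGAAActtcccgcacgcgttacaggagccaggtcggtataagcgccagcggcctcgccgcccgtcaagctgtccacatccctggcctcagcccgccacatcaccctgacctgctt
Such a match stood in 9 of the 32 tested ATF4 targets that had a window (28.1%) and in 1217 of all 27305 symbols with a window (4.46%). PSAT1, PHGDH, MTHFD2, PYCR1 and SHMT2, which also lay above the sum, were not among the 9. The match describes letters in these windows and is not evidence of a bound site.

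No gene passed the test of the departure with edgeR's quasi-likelihood test at a Benjamini-Hochberg adjusted p of 0.05 (0% of 15353). At an unadjusted p of 0.05, 640 genes lay above the sum (4.17%) and 926 below it (6.03%). At an adjusted p of 0.10, 2 genes lay above it (0.013%), CHAC1 and PSAT1, and 13 below it (0.0847%). The 13 were NREP, ACTA2, COL1A1, SLN, ITGA7, LOXL1, CXCL8, SERPINA3, HTRA1, ZNF580, BTG1, MMP2 and the read-through entry BIVM-ERCC5. The smallest adjusted p was 0.0797. DESeq2 called 102 genes (11 above and 91 below), limma-voom called 0, and edgeR without a filter on low counts called 132.

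The size of departure that these libraries could have hidden is set by its standard error. The median standard error was 0.0974 on the log2 scale, against 0.069 for OF1 against DMSO, since the departure adds the error of 4 means. The 95% interval of the departure lay wholly within 1.2-fold of additivity for 6363 genes (41.4%), within 1.5-fold for 11185 (72.9%) and within 2-fold for 12860 (83.8%). In the combination against DMSO 1645 genes changed (10.7% of those tested). Their interval lay within 1.5-fold for 1479 (89.9%), and their median departure was 0.02. Changed or not, the 12345 tested genes at or above 1 in mean log2 CPM had a like share, 90.3%. Below that level the share was 1.06%. The 89.9% was therefore not read as a closeness to additivity particular to the genes that changed. The G2/M kinase CDK1 shows a gene that changed and whose interval lay within 1.5-fold. Its level was 103, 104 and 105 CPM (counts scaled to a common library size) with DMSO, 135, 143 and 145 with XL413, 110, 111 and 107 with OF1, and 154, 149 and 152 with both. The product of the single changes gives 148 CPM, the mean with both was 152, and the departure was 0.04 with a 95% interval from -0.07 to 0.14.

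The libraries of the combination were not alike, and this bears on the results that follow. Total counts ran from 30499559 to 36062138 over the 12 libraries. Along the first principal component (24.1% of the variance) combination replicates 2 and 3 lay at -33.4 and -31.5 and replicate 1 at -6.99, while the other 9 libraries lay between -1.92 and 15.1. The melanoma factor SOX10 was between 318 and 386 CPM in every library and MITF between 32.8 and 44.4. Of the pigment genes PMEL was at most 1.04 CPM, and MLANA, TYR and DCT had too few counts to be tested. Nothing in the labels says that the libraries of a treatment came from separate cultures, so a p-value here speaks only of the spread among the libraries at hand.

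Targets of ATF4 lay above the sum in greater number than any other list read here. Of 42 tested members 37 had a positive departure, beside 52.5% of all genes. Like shares were positive in some other lists, such as 26 of 30 origin licensing genes and 29 of 34 G2/M genes. So were 15 of 18 reference genes of every cell, but only 12 of 27 p53 targets. The sign alone thus does not set this list apart. At an unadjusted p of 0.05, 23 were above the sum and 2 below it (4.17% and 6.03% of all genes). The median departure was 0.18, beside 0.0079 over all genes and 0.06 over the reference genes. Of the latter, 2 were above the sum and 0 below at the same unadjusted p. None passed after adjustment over all genes. Without the other inhibitor, XL413 lowered 6 members and raised none (fell 1.54%, rose 1.26% of all genes), and OF1 raised 19 and lowered none (0.58% and 0.567%). With XL413 present, OF1 raised 33 (1.06% of all genes), and the median change over the 42 members was 0.38, against 0.22 with OF1 alone. These changes of OF1 come from different libraries, since the first sets OF1 against DMSO and the second sets the combination against XL413.

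CHAC1, which degrades glutathione, had the larger departure of the 2 genes above the sum at an adjusted p of 0.10. Its level was 5.94, 5.49 and 3.91 CPM with DMSO, 4.03, 3.64 and 3.98 with XL413, 6.97, 7.74 and 7.47 with OF1, and 10.6, 11.4 and 11.6 with both. The 3 libraries with both inhibitors lay above all the others, and those with XL413 overlapped DMSO at the low end. The single changes gave an expected level of 5.62 CPM and the mean with both was 11.2 ± 0.553 (SD, n = 3). The departure was 0.99 ± 0.17 (log2, SE), or 1.99-fold, with a 95% interval from 0.62 to 1.36 and an adjusted p of 0.0869. OF1 raised CHAC1 by 0.53 alone (edgeR adjusted p = 0.0495) and by 1.52 with XL413 (adjusted p = 4.85e-06).

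PSAT1, of serine synthesis, was far more abundant and its libraries were tighter. Its level was 389, 391 and 386 CPM with DMSO, 348, 348 and 360 with XL413, 507, 519 and 512 with OF1, and 536, 534 and 538 with both. Each treatment was apart from the others, with XL413 lowest and the combination highest. The expected level was 464 CPM and the mean with both 536 ± 1.79 (SD, n = 3), a departure of 0.21 ± 0.04 (adjusted p = 0.0896). PSAT1 fell with XL413 alone (log2 change -0.14, edgeR adjusted p = 0.0135), and its change with XL413 was 0.06 when OF1 was present (adjusted p = 0.167).

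The enzymes next to PSAT1 had departures of like size. PHGDH, the first enzyme of serine synthesis, was at 348, 336 and 337 CPM with DMSO, 323, 330 and 320 with XL413, 400, 407 and 415 with OF1, and 430, 473 and 472 with both. Its expected level was 389 CPM, its mean with both was 458, and its departure was 0.24 ± 0.05 (adjusted p = 0.118). Combination replicate 1 was the lowest of the libraries with both inhibitors, though above every library of the other treatments. For ASNS, asparagine synthetase, the values were 154, 148 and 151 with DMSO, 133, 137 and 136 with XL413, 236, 242 and 238 with OF1, and 239, 243 and 244 with both. Here the level with both overlapped that with OF1, and the departure of 0.18 ± 0.04 (adjusted p = 0.118) stands beside a fall with XL413 alone (-0.16, adjusted p = 0.0136). The mitochondrial folate enzymes MTHFD2 and SHMT2 had departures of 0.18 and 0.17, PYCR1 of proline synthesis 0.29 and the glycine transporter SLC6A9 0.37.

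**Figure D1:**
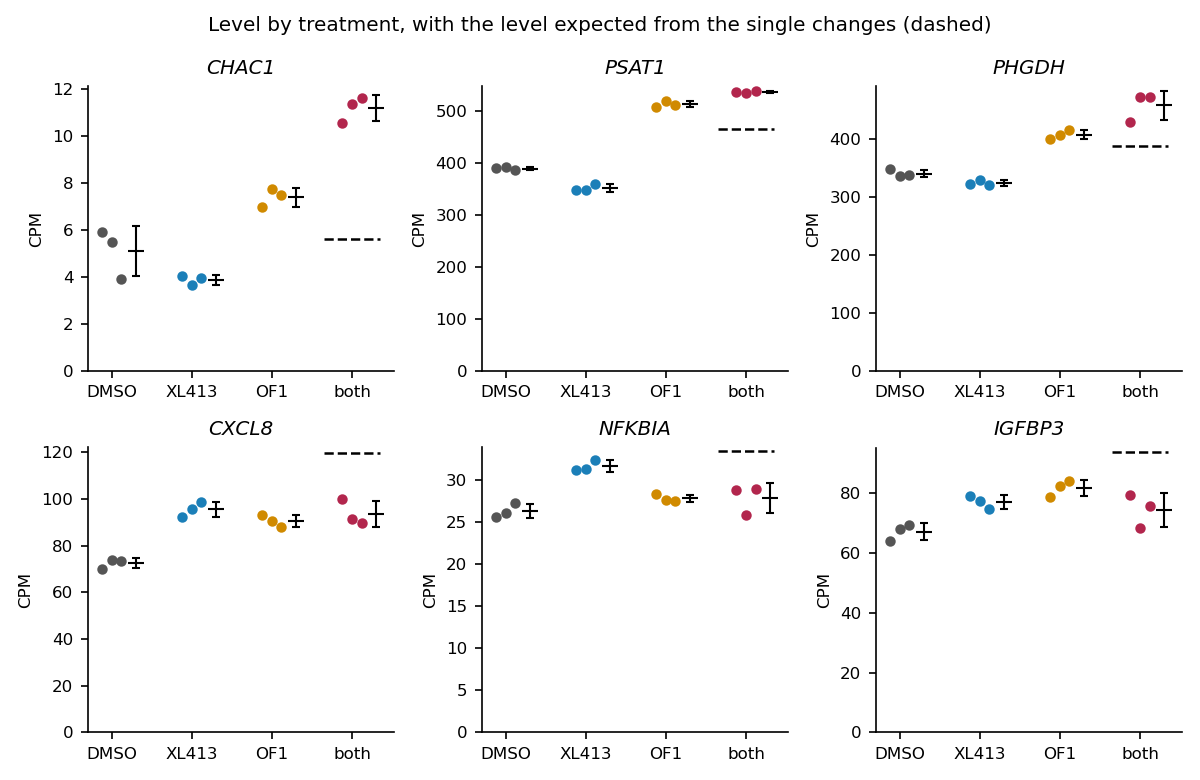
Level in CPM (y axis, from 0) of 6 genes in each library by treatment (x axis). Points are libraries, the bar beside them is the mean ± SD (n = 3) and the dashed line is the level expected from the single changes. CHAC1, PSAT1 and PHGDH lie above the dashed line and CXCL8, NFKBIA and IGFBP3 below it in all 3 libraries with both inhibitors.

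For some ATF4 targets the 95% interval of the departure reached 0. The stress cytokine GDF15, which rose with OF1, had a departure of -0.13 with a 95% interval from -0.36 to 0.10, and PCK2 had 0.15 (-0.03 to 0.33). SLC7A11, the cystine transporter, had 0.20 (-0.03 to 0.43). The 2 members below the sum at an unadjusted p of 0.05 were CEBPB, at -0.42 ± 0.12, and the angiogenic factor VEGFA, at -0.20 ± 0.06. Both lay near 0 when the levels of muscle genes, described further on, were added as covariates (CEBPB -0.07, VEGFA -0.03). ATF4 itself had 352, 342 and 337 CPM with DMSO, 308, 317 and 312 with XL413, 364, 386 and 378 with OF1, and 375, 373 and 416 with both, a departure of 0.18 ± 0.06 (adjusted p = 0.232). The largest value in the list was that of INHBE, an activin subunit, at 1.80 ± 0.52 (adjusted p = 0.2), but its level reached only 1.62 CPM. With the muscle covariates the intervals of ATF4 (0.15, -0.03 to 0.33) and INHBE (1.47, -0.16 to 3.1) also reached 0. PCK2 then had 0.05, SLC7A11 0.24 and GDF15 -0.33.

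The cytosolic tRNA synthetases, which charge tRNAs with amino acids, also lay mostly above the sum, over a narrower range. Of 20 members, 10 were above the sum and 0 below it at an unadjusted p of 0.05 (4.17% and 6.03% of all genes). The median departure was 0.10, beside 0.06 for the reference genes. XL413 alone lowered 2 and raised 0 (1.54% and 1.26% of all genes). OF1 alone raised 7 and lowered 1 (0.58% and 0.567%). The single changes were not alike in all synthetases. VARS fell with XL413 (-0.18) and with OF1 (-0.15), and its departure of 0.11 means that it fell less with both (-0.22) than the sum. YARS was at 321, 323 and 321 CPM with DMSO, 307, 312 and 311 with XL413, 355, 355 and 348 with OF1, and 375, 396 and 385 with both. The combination lay above all the other libraries, and the departure was 0.18 ± 0.04 (adjusted p = 0.118). MARS also had 0.18 ± 0.04 (adjusted p = 0.118) and AARS 0.16 ± 0.04 (adjusted p = 0.16). DESeq2's 11 calls above the sum were PSAT1, CHAC1, PHGDH, YARS, MARS, MTHFD2, PYCR1, ASNS, SHMT2, AARS and GCOM1, of which 10 were ATF4 targets or synthetases. In edgeR without combination replicate 1, the same lists gave 15 of 75 calls above the sum. DESeq2 tested 21113 genes and that edgeR fit 15523, while the lists hold 42 and 20 genes tested in the main fit. Both fits reuse the libraries that gave the departures above, so they are no separate support. Among the kinases and feedback genes of the integrated stress response, 1 of 15 lay above the sum and 0 below.

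**Figure D2:**
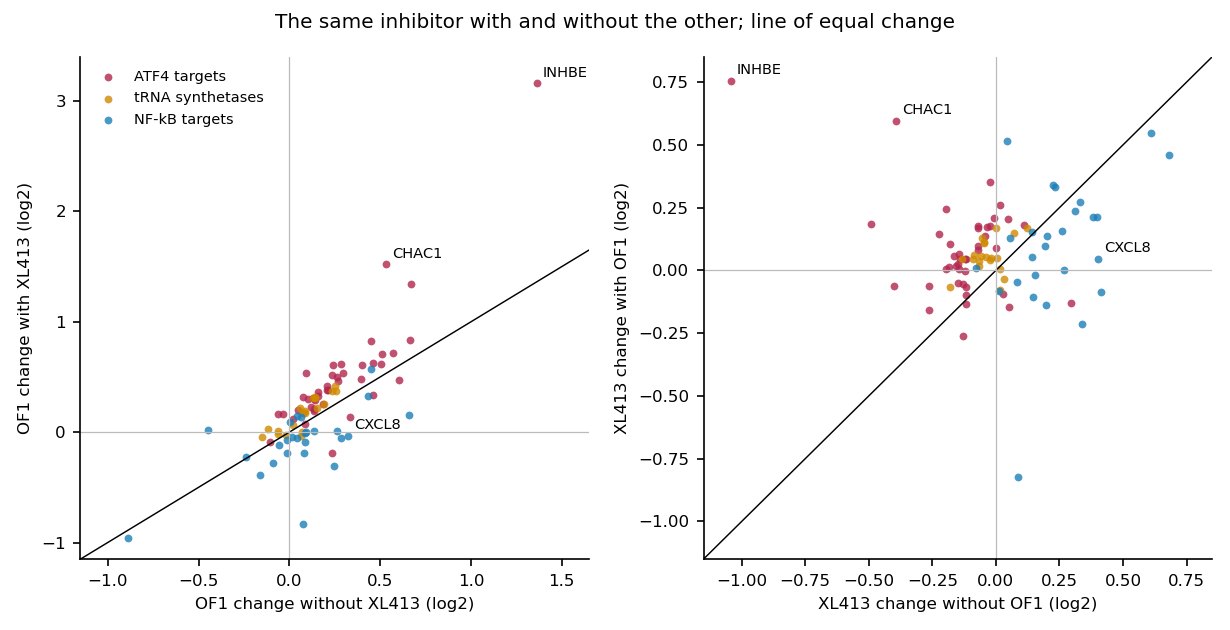
Left: log2 change with OF1 in the presence of XL413 (y axis) against the change without it (x axis). Right: the change with XL413 in the presence of OF1 against the change without it. Each point is a gene of the ATF4 target, tRNA synthetase or NF-kB list, and the diagonal marks equal change, so that height above it is the departure. Most ATF4 targets lie above the diagonal, with CHAC1 at 0.53 without and 1.52 with XL413.

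Some genes responded to both inhibitors taken singly. With an adjusted p of 0.05 for each, 22 changed in the same direction with both and 7 in opposite directions. Another 401 changed with XL413 only and 147 with OF1 only. Of all genes, XL413 raised 1.26% and lowered 1.54%, and OF1 raised 0.58% and lowered 0.567%. Both single changes use the same DMSO libraries, so the split by direction was not read as a result. The 7 of opposite direction were ASNS, PSAT1, SHMT2, MARS, CEBPG, the mitotic kinase AURKA and ESM1. All 7 had positive departures, from 0.10 for AURKA to 0.21 for PSAT1. Of the 22 that changed in the same direction with both, 21 had a departure of the sign opposite to the sum, so that the combination lay nearer to DMSO than the sum did. CXCL8 and IL1A are among those 21, and CAV1 is the exception, with a sum of -0.39 and a departure of -0.05. These genes were found through libraries that also enter the departure, so this is a description.

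Read over genes, the effect of each inhibitor kept its direction with the other present. Of 89 genes that rose with OF1 alone, 81 had a positive change with OF1 in cells that also had XL413, and 50 rose by the same test. Of 87 that fell, 85 had a negative change and 28 fell (1.06% and 2.35% of all genes rose and fell in that comparison). Of 193 genes that rose with XL413 alone, 164 had a positive change in cells that also had OF1 and 90 rose. Of 237 that fell, 223 had a negative change and 56 fell (2.79% and 2.71% of all genes). No gene of these sets was called in the opposite direction. Over all tested genes 53.3% of OF1 changes and 49.6% of XL413 changes were positive with the other inhibitor present. The genes were chosen for their change in the first pair of treatments, so a smaller change in the second was not read as a weaker effect. MMP3, a matrix protease lowered by OF1 (-0.89 alone, adjusted p = 0.000647), was one whose departure was small, at -0.07 ± 0.14.

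Targets of NF-kB and factors secreted by senescent cells lay on the other side. NF-kB is the transcription factor that drives inflammatory cytokines. Of 26 tested members 0 were above the sum and 8 below it at an unadjusted p of 0.05 (4.17% and 6.03% of all genes). Their median departure was -0.10. XL413 alone raised 9 of them (1.26% of all genes), and OF1 alone raised 3 and lowered 2 (0.58% and 0.567%). The combination against DMSO raised 10 and lowered 1 (5.65% and 5.07% of all genes). The chemokine CXCL8 was at 70.1, 74.0 and 73.3 CPM with DMSO, 92.3, 95.8 and 98.7 with XL413, 93.0, 90.6 and 88.1 with OF1, and 100.04, 91.2 and 89.5 with both. The 3 treated groups overlapped one another and all lay above DMSO. The expected level was 119 CPM and the mean with both 93.6 ± 5.67 (SD, n = 3), a departure of -0.35 ± 0.06 (adjusted p = 0.0896).

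Other members of that group also lay below the sum. NFKBIA, the inhibitor of NF-kB that the factor itself induces, was at 25.6, 26.2 and 27.3 CPM with DMSO, 31.3, 31.4 and 32.5 with XL413, 28.4, 27.6 and 27.6 with OF1, and 28.9, 25.9 and 29.0 with both. It rose with XL413 alone (0.27, adjusted p = 0.0124), whereas the libraries with both inhibitors overlapped DMSO and OF1, and the departure was -0.27 ± 0.07 (adjusted p = 0.16). IGFBP3, which binds insulin-like growth factors, had an expected level of 93.8 CPM and a mean with both of 74.4, a departure of -0.33 ± 0.07 (adjusted p = 0.118), which was -0.09 (95% interval -0.27 to 0.08) with muscle covariates. The cytokine IL1A had -0.50 ± 0.13 (adjusted p = 0.164) and CXCL1 -0.17 ± 0.06.

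Several single genes below the sum had tight libraries. NREP was at 25.2, 25.2 and 25 CPM with DMSO, 27.3, 27.1 and 28.4 with XL413, 27.1, 29.1 and 28.8 with OF1, and 22.9, 23.6 and 22.8 with both. The combination lay below all other libraries, although each inhibitor alone gave values above DMSO. The expected level was 31.1 CPM, the mean with both 23.1 ± 0.463 (SD, n = 3) and the departure -0.43 ± 0.06 (adjusted p = 0.0797). MMP2, a matrix protease, was at 171, 174 and 177 CPM with DMSO, 215, 209 and 195 with XL413, 174, 175 and 177 with OF1, and 172, 174 and 174 with both. It rose with XL413 alone (0.25, adjusted p = 0.00208) and was back within the range of DMSO in every library with both, a departure of -0.26 ± 0.05 (adjusted p = 0.0924). The protease inhibitor SERPINA3 had -0.32 ± 0.06 and the antiproliferative gene BTG1 -0.30 ± 0.06, both with an adjusted p of 0.0896. On the other side, LIN52, a subunit of the complex that represses or activates cell cycle genes, was at 8.69, 8.80 and 7.95 CPM with DMSO, 7.26, 7.57 and 7.47 with XL413, 7.77, 7.84 and 7.62 with OF1, and 9.81, 9.25 and 9.32 with both. Its combination libraries lay above all the others and its departure was 0.48 ± 0.10 (adjusted p = 0.118).

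The lists with the largest median departures lay below the sum and held muscle, fibroblast and matrix genes. The muscle and fibroblast markers are mostly not typical of melanoma cells. The matrix genes were abundant in every library, with summed levels between 5095 and 6418 CPM. Of 40 tested skeletal muscle fibre genes 36 were below the sum and 0 above at an unadjusted p of 0.05 (6.03% and 4.17% of all genes). Their median departure was -2.57. Of 18 muscle progenitor genes 10 were below (median -1.45), of 15 fibroblast markers 10 (median -0.94) and of 29 matrix genes 21 (median -0.32), and none of these was above. Without combination replicate 1 the progenitor count was 16. In bulk RNA, fewer cells of a type and less RNA per cell cannot be told apart.

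COL1A1, the chain of type I collagen, was at 80.6, 102 and 94.4 CPM with DMSO, 113, 97.1 and 92.4 with XL413, 109, 101 and 117 with OF1, and 52.7, 19.4 and 28.4 with both. All 3 combination libraries were below the rest, with replicate 1 the nearest to them. The departure was -1.83 ± 0.31 (adjusted p = 0.0869), -1.17 with replicate 1 as the only combination library and -2.33 without it. ACTA2, smooth muscle actin, was at 7.46, 8.16 and 8.04 CPM with DMSO, 10.6, 10.0 and 9.21 with XL413, 8.33, 9.21 and 9.64 with OF1, and 7.30, 5.58 and 6.14 with both, a departure of -0.85 ± 0.14 (adjusted p = 0.0869). LOXL1, which crosslinks elastin, had -1.73 ± 0.30 and the protease HTRA1 -0.76 ± 0.14. The myogenic factor MYOG was at 0.809, 1.23 and 2.00 CPM with DMSO, 3.45, 3.03 and 1.32 with XL413, 1.63, 2.31 and 3.36 with OF1, and 0.901, 0.224 and 0.280 with both. Its spread within a treatment was wide and DMSO overlapped each of the other treatments, and its departure was -3.33 ± 0.66 (adjusted p = 0.118). MYOD1, the factor that sets the muscle lineage, was at 1.71, 0.998 and 1.26 CPM with DMSO, 1.42, 1.79 and 1.85 with XL413, 1.07, 1.11 and 1.501 with OF1, and 1.58, 0.42 and 0.218 with both. Combination replicate 1 was thus within the range of the other treatments for MYOD1, and replicates 2 and 3 were below it (departure -1.09 ± 0.62, adjusted p = 0.588).

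The summed levels of these lists also varied within a treatment. The 40 muscle fibre genes summed to 425.9 to 651.7 CPM with DMSO, 522.4 to 747.5 with XL413, 456.3 to 732.9 with OF1 and 341.3 to 440.9 with both. As mean log2 CPM, the same list was at 0.70, 1.21 and 2.05 with DMSO, 2.38, 1.90 and 1.10 with XL413, 1.26, 2.26 and 2.43 with OF1, and 0.71, -0.61 and -0.03 with both. DMSO replicate 1 and combination replicate 1 were thus level, while combination replicates 2 and 3 lay below every other library. The 15 fibroblast markers summed to 422.1 to 506.9 CPM in the 9 other libraries and 232.8 to 367.8 with both. Of the immune cell markers, 4 of 15 had no count in any library. The rRNA precursor RNA45S5, which poly(A) selection should leave behind, was at 70.5 to 106 CPM with both and 90.2 to 179 in the others (departure -1.16 ± 0.25, adjusted p = 0.118). What part these levels have in the departures was not tested, beyond the refits given next.

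**Figure D3:**
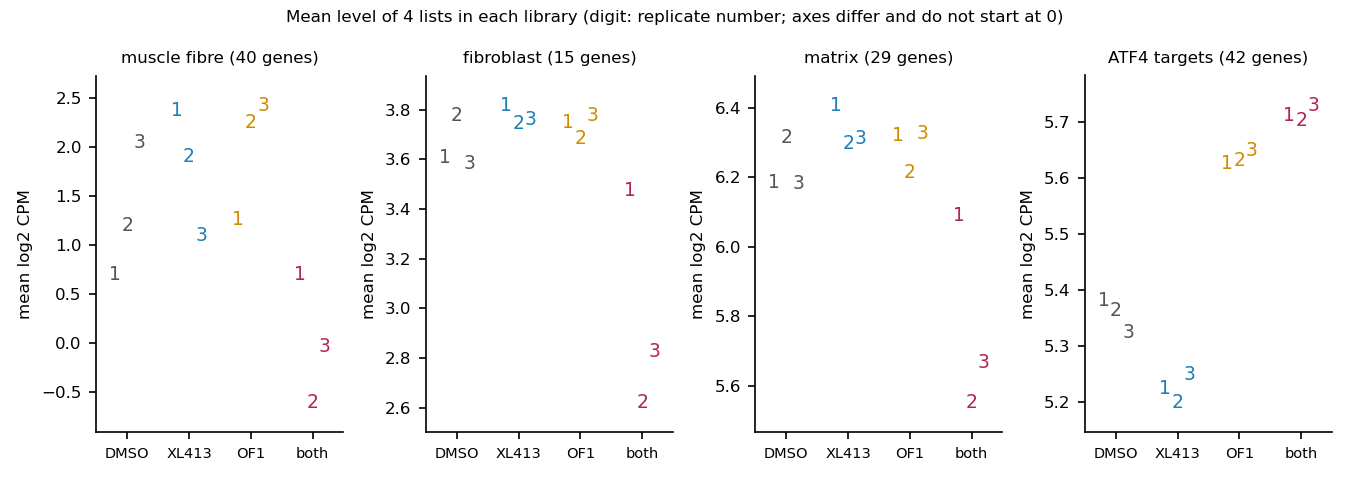
Mean log2 CPM (y axis, which differs between panels and does not start at 0) of 4 lists in each library by treatment (x axis), with the digit giving the replicate number. In the muscle fibre, fibroblast and matrix panels combination replicates 2 and 3 lie below all other libraries and replicate 1 lies nearer to those, while in the ATF4 panel the 3 combination libraries lie together at 5.70 to 5.73.

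The departures of the stress, cytokine and matrix genes were therefore read with other choices of libraries. With replicate 1 as the only combination library, 20 of the ATF4 targets were above the sum at an unadjusted p of 0.05, and without it 23 were. For NF-kB targets 9 and 10 were below. With the mean levels of the muscle fibre and progenitor lists as covariates, 10 ATF4 targets were above and 4 NF-kB targets below, and the smallest adjusted p of any gene was 0.999. The departure of CHAC1 was 0.91 with replicate 1 alone, 1.02 without it and 0.72 with the covariates. That of PSAT1 was 0.21, 0.20 and 0.19, that of NREP -0.45, -0.43 and -0.44, and that of MMP2 -0.28, -0.27 and -0.20. CXCL8 gave -0.26, -0.41 and -0.29. Some other stress and cytokine genes lost more with the covariates. PHGDH went from 0.24 to 0.14, YARS from 0.18 to 0.12, AARS from 0.16 to 0.06, IL1A from -0.50 to -0.27 and IGFBP3 from -0.33 to -0.09, and of these intervals all reached 0. Those of SLC6A9 and NFKBIA also did, while those of ASNS, MTHFD2, PYCR1, SHMT2, MARS and CXCL1 stayed clear of 0. The standard errors of these genes were also wider with the covariates, for YARS 0.06 against 0.04. Matrix genes shifted more, with 11 below using replicate 1 alone, 23 without it and 6 with the covariates, and COL1A1 at -1.17, -2.33 and -0.86. HTRA1 went from -0.76 with all libraries to -0.27 with the covariates.

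**Figure D4:**
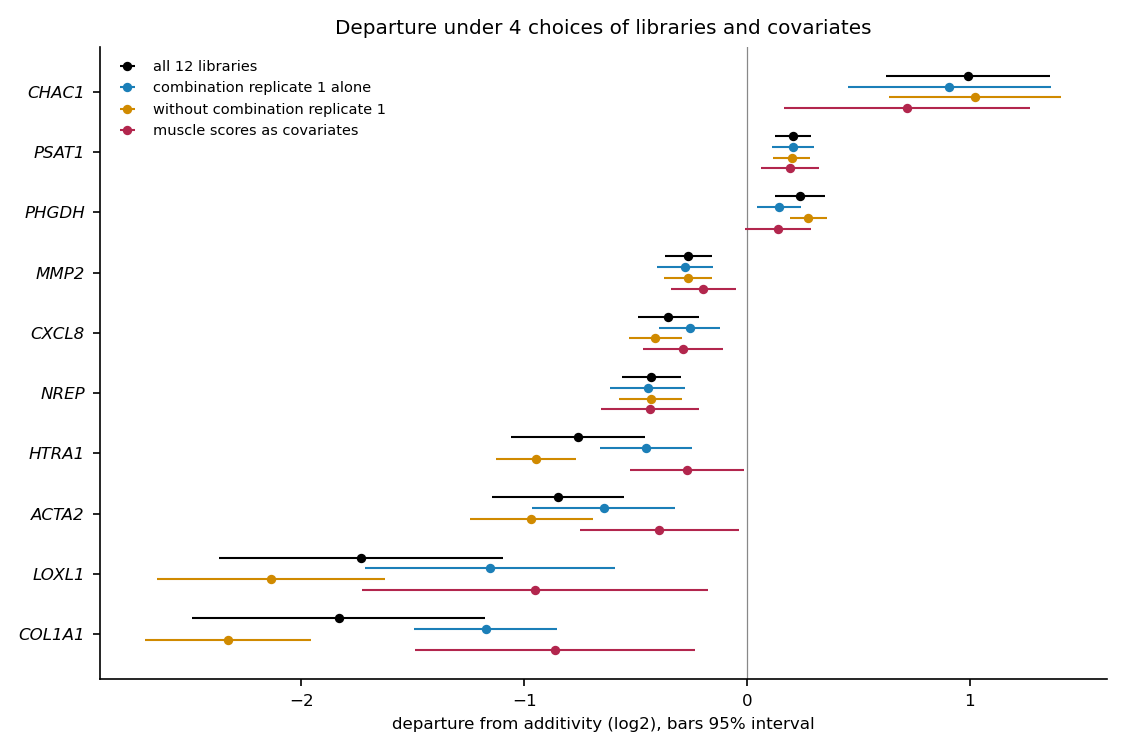
Departure in log2 (x axis) of 10 genes (y axis) with 4 choices, all 12 libraries, combination replicate 1 alone, without combination replicate 1, and muscle scores as covariates, with bars for the 95% interval. PSAT1 and NREP move least, CXCL8 spans -0.41 to -0.26, and COL1A1, LOXL1, ACTA2 and HTRA1 lie nearer to 0 with the covariates.

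For the pathways the inhibitors address, departures were near 0 for some genes and clear of 0 for others. CDC7 had 23.3 CPM with DMSO and 23.5 with both, and a departure of -0.03 ± 0.07, and its activator DBF4 had -0.05 ± 0.06. MCM2, a helicase subunit that CDC7 phosphorylates, was at 346, 346 and 342 CPM with DMSO, 354, 360 and 348 with XL413, 309, 309 and 317 with OF1, and 342, 357 and 358 with both. OF1 alone gave the lowest values and the combination overlapped DMSO and XL413, with a departure of 0.14 ± 0.04 (adjusted p = 0.216). Of 30 genes of origin licensing and firing, 3 were above the sum and 0 below at an unadjusted p of 0.05 (4.17% and 6.03% of all genes). Their median was 0.06, as was that of 18 reference genes of every cell. Leaving out 1 library gave 1 (without combination replicate 2) to 5 above (without combination replicate 1). BRPF1, BRD1 and BRPF3 had departures of 0.01 ± 0.06, 0.09 ± 0.08 and 0.10 ± 0.06, and of the 12 BRPF scaffold and MYST complex genes none was above or below. An inhibitor that blocks a protein need not change its transcript, so these values are no check of its action.

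In the cell cycle, 8 of 34 G2/M mitotic genes were above the sum and 1 below at an unadjusted p of 0.05 (4.17% and 6.03% of all genes). Their median departure was 0.07, beside 0.06 for 18 reference genes of every cell. The count above was 4 without DMSO replicate 1 or 2, 3 without combination replicate 2, 5 without combination replicate 3 and 1 with muscle covariates. PLK1, a mitotic kinase, was at 260, 258 and 256 CPM with DMSO, 258, 254 and 250 with XL413, 224, 229 and 231 with OF1, and 237, 260 and 256 with both, a departure of 0.16 ± 0.05 (adjusted p = 0.226). The combination spanned the range from just above OF1 to DMSO. CDC20, which activates the anaphase-promoting complex, had 0.18 ± 0.06 (adjusted p = 0.232), and the 1 member below was the centromeric histone CENPA, at -0.30 ± 0.10 (adjusted p = 0.274). TOP2A, which untangles DNA, rose with XL413 alone (0.33) and with both (0.42), and its departure was 0.09 ± 0.06. The histone gene HIST1H2AC was at 5.46, 5.25 and 4.51 CPM with DMSO, 9.14, 9.39 and 9.66 with XL413, 4.95, 4.17 and 3.90 with OF1, and 10.3, 10.8 and 12.8 with both. The expected level was 8.04 CPM and the mean with both 11.3, a departure of 0.49 ± 0.15 (adjusted p = 0.24). With muscle covariates it was 0.10, with a 95% interval from -0.33 to 0.54, while PLK1 had 0.09, CDC20 0.10 and CENPA -0.19. Of 28 DNA repair genes 3 were above, among them the recombination factor RAD54L at 0.19 ± 0.06, and 1 below, and leaving out 1 library gave 1 (combination replicate 3) to 5 above (DMSO replicate 1).

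**Figure D5:**
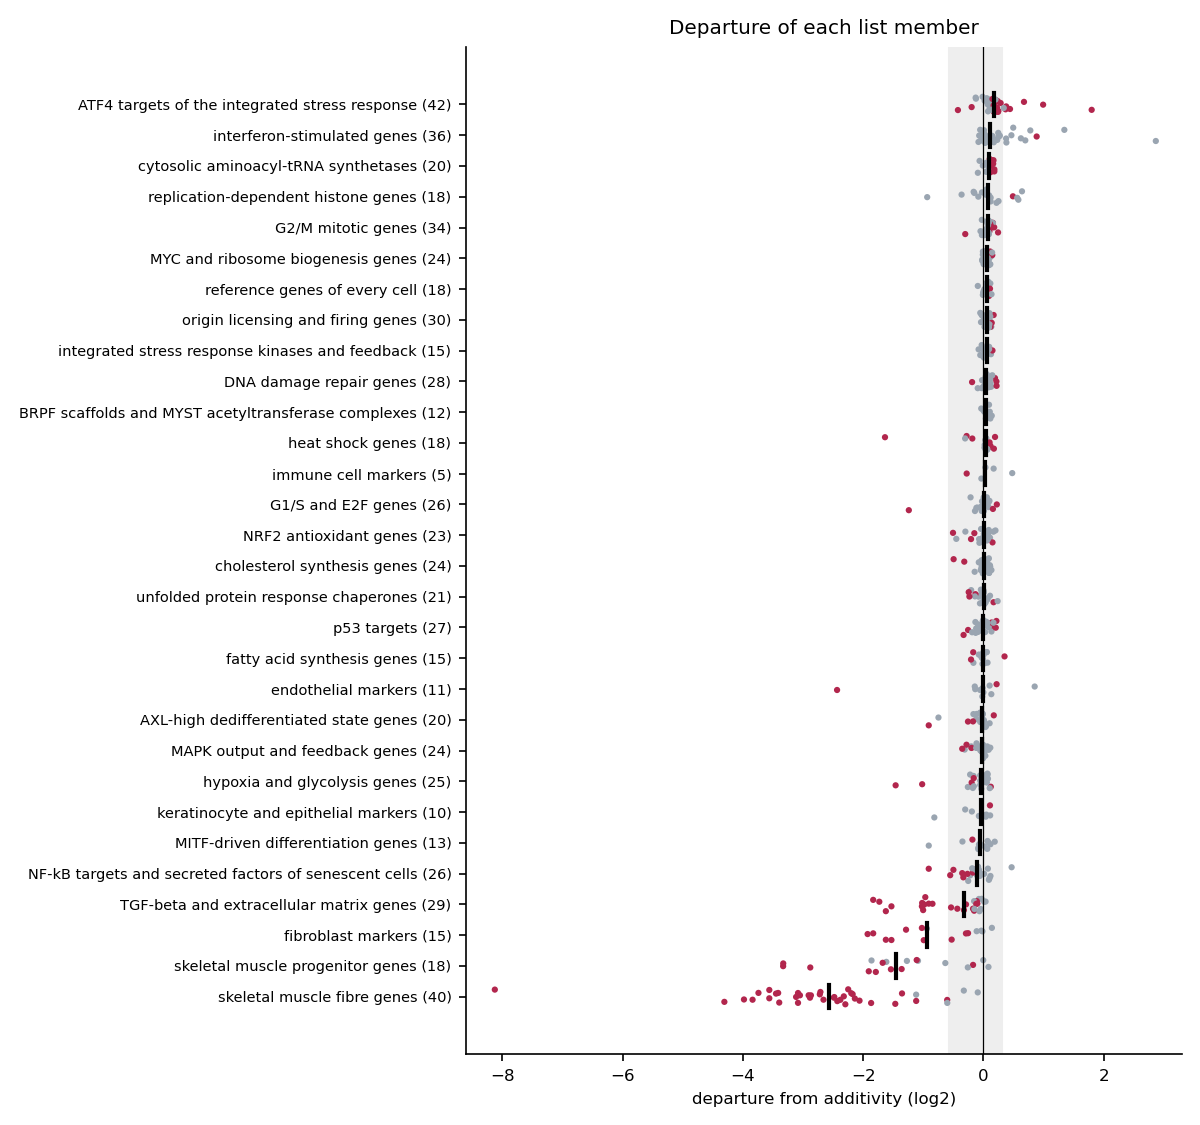
Departure in log2 (x axis) of every tested member of 30 gene lists (y axis, number of tested members in brackets), with a black line at the median. Red points have an unadjusted p under 0.05, the shaded band spans the 5th to 95th percentile of all genes (-0.57 to 0.31) and 0 is additivity. The ATF4 list has 23 red points above 0 and the muscle fibre list 36 below.

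In the other pathway lists the median departure ran from -0.06 for MITF-driven genes to 0.11 for interferon-stimulated genes. The upper end rests on single libraries, since the interferon median was 0.03 without combination replicate 1 and 0.18 without XL413 replicate 3. For 27 p53 targets the median departure was 0.00, with 4 above and 2 below at an unadjusted p of 0.05 (4.17% and 6.03% of all genes). The latter included ZMAT3 at -0.33 ± 0.09. For 24 MAPK output genes, which report the pathway that drives this BRAF-mutant line, the median was -0.03, with 0 above and 3 below. One of these was CXCL8, which the NF-kB list also holds. Another was FOSL2, an AP-1 factor, at 47.1, 49.7 and 48.1 CPM with DMSO, 51.4, 46.7 and 47.7 with XL413, 43.2, 44.4 and 45.1 with OF1, and 37.95, 35.3 and 36.7 with both. Its combination libraries were below all the others and its departure was -0.28 ± 0.06 (adjusted p = 0.118). For 24 cholesterol synthesis genes the median was 0.01, with 0 above and 2 below, among them the sterol sensor INSIG1 at -0.32 ± 0.09 (adjusted p = 0.188). Of the 36 interferon-stimulated genes 1 was above and 0 below at an unadjusted p of 0.05, and their mean log2 CPM spread from 3.21 to 3.78 within the combination. For 18 reference genes of every cell the median was 0.06, with 2 above and 0 below, ACTB being at 0.09 ± 0.04. Leaving out 1 library gave 0 to 6 interferon-stimulated genes above the sum, 0 to 6 reference genes above, 2 to 6 p53 targets above and 3 to 5 MAPK output genes below. With muscle covariates FOSL2 was at -0.15, INSIG1 at -0.19 and ZMAT3 at -0.19.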

How the data were processed

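RNA of 12 libraries of A375 cells was selected with oligo-dT beads and made into strand-specific libraries, per the labels' protocols. The file the authors deposited gives expected counts, unscaled, for each gene symbol. RSEM 1.2.15, Bowtie2 2.1.0 and hg38 appear per the submitters' processing notes. The annotation, and whether strand was used to count, is not given in the sources used here. Genes that overlap or share sequence may exchange reads in such estimates. Of the values 10.6% were not whole, and all were rounded. Names on 28 entries read as dates (0.17% of counts) and are not named here.

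Genes passing filterByExpr (15353) were fitted with edgeR 4.0.16 in R 4.3.3 on TMM factors (0.967 to 1.02), with 1 mean per treatment, 8 residual degrees of freedom and a common biological coefficient of variation of 0.0487. The departure was a contrast of the 4 means, tested with the quasi-likelihood F test and adjusted with Benjamini-Hochberg over all genes. Standard errors are the absolute log2 value over the square root of F. The expected level is the DMSO mean times the single fold changes. CPM uses TMM library sizes. Alternatives used limma 3.58.1, DESeq2 1.42.0, other factors and filters, a replicate block, a linear scale, muscle covariates and fewer libraries. The fit was checked on simulated counts.

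Named genes were those of smallest p in each direction, up to 3 of smallest p per list, the targets of the inhibitors and genes past an adjusted p of 0.10 or named as contrasts after their values were seen. Among the latter are GDF15, PCK2, SLC7A11, CDK1, TOP2A, MMP3, INHBE, AURKA, CEBPG and ESM1. The lists and the contrast were chosen with earlier results of these data known. Promoter windows are from RefSeq on GRCh38.p14.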

Additional observations from a re-analysis of the deposited data

How the results depend on the processing

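The number of genes departing from additivity at an adjusted p of 0.05 was 0 with the main edgeR fit, with RLE or upper-quartile factors, with a filter at 1 CPM in 3 libraries, with limma-voom, with muscle covariates and in a test against a 1.2-fold departure. It was 132 without a filter, 102 with DESeq2 (which gave no adjusted p for 9402 genes), 9 on a linear scale (1 above and 8 below), 1 with combination replicate 1 alone (COL1A1) and 15 at an adjusted p of 0.10. Leaving out 1 library gave 0 to 362 genes. The count of 362 (75 above and 287 below) came without combination replicate 1, and leaving out DMSO replicate 1, DMSO replicate 3 or XL413 replicate 3 gave 1, 6 and 1. The 15 genes at an adjusted p of 0.10 were all among the calls without combination replicate 1, with DESeq2 and without a filter. The causes of these differences were not tested.

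At an unadjusted p of 0.05, the genes above and below the sum, 640 and 926, numbered 65 and 424 against a 1.2-fold departure and 207 and 262 with muscle covariates. Leaving out 1 library gave 375 (without combination replicate 2) to 1188 above (without combination replicate 1) and 747 to 1368 below. A replicate block gave 2 genes at an adjusted p of 0.05, the read-through entries C7orf55-LUC7L2 and BIVM-ERCC5. Same-numbered libraries did not deviate together, with correlations from -0.161 to 0.199 over 18 pairs and 3 of 12 libraries correlating best with their own number, so the numbers were not taken to pair them.

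Departures near 0 changed sign on leaving out 1 library. CDC7 ran from -0.068 to 0.0079, BRPF1 from -0.011 to 0.0417 and MMP3 from -0.149 to 0.0348. Depth limits the low genes most, since the 95% interval lay within 1.2-fold of additivity for 0 of the 3008 genes whose average log2 CPM was under 1.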
